A study of Mus musculus with 12 samples.

Results

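The phase II conjugating enzymes examined here are the genes of 3 superfamilies, the cytosolic and kappa class glutathione S-transferases (GST), the UDP-glucuronosyltransferases and their relatives (UGT) and the cytosolic sulfotransferases (SULT). They were taken by symbol: Gst followed by a class letter (a, m, p, t, k, o or z) and a number, Ugt followed by a number, or Sult followed by a number. The rule found 64 of the 25239 gene symbols in the count table, 22 of them GST, 21 UGT and 21 SULT genes. Messenger RNA was sequenced from brain and liver of wild-type male C57BL6/J mice aged 24 months, with 3 control and 3 heat stress libraries per tissue and 12 libraries in all. Heat stress mice had spent 3 hours a day for 15 days at 40 °C and 60% relative humidity, and control mice had not. The labels give the same wild-type genotype to all mice and name no other agent, and the brain region is not given in the sources used here. Whether each library number stands for the same mouse in both tissues is not stated either, so p-values describe the spread between these libraries. Bulk tissue was used, in which fewer cells of a type and less RNA per cell cannot be told apart.

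Conjugation makes fat-soluble molecules soluble enough to leave the body. GST enzymes attach glutathione to electrophiles, UGT enzymes attach glucuronic acid to bilirubin, steroids and drugs, and SULT enzymes transfer a sulfate group to phenols, steroids and bile acids. The liver is their main site, and xenobiotic receptors together with the redox sensor NRF2 are known to control many of the genes. In brain, a few members serve the tissue itself, such as Ugt8a, which makes galactosylceramide for myelin, and Sult4a1, a sulfotransferase-like protein of neurons.

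Levels are given as normalized counts, which are CPM, counts scaled to a common library size, after TMM scaling within a tissue. Control and heat stress libraries of a tissue were compared with the quasi-likelihood test of edgeR, and adjusted p-values are Benjamini-Hochberg values over all genes tested in that tissue. Of the 64 members, 42 had enough counts to be tested in liver (20 GST, 15 UGT and 7 SULT) and 21 in brain (16 GST, 1 UGT and 4 SULT). Both tissues shared 17 tested members, 18 were tested in neither, and 4 had no count in any library. Among members that were not tested, 14 in liver and 37 in brain had at most 3 counts in every library. Library totals lay between 10466198 and 15609040 counts. GST genes took 0.62% to 0.838% of all counts in liver libraries and 0.064% to 0.0999% in brain libraries. UGT genes took 0.409% to 0.525% in liver, and SULT genes 0.144% to 0.28%.

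Liver libraries differed in ways that the groups do not explain. Control replicate 1 and heat stress replicate 2 carried skeletal muscle transcripts, at a summed level of 390.3 and 2229 normalized counts over 8 muscle marker genes, against 1.03 to 6.94 in the other 4 liver libraries. Hepatocyte markers were abundant in every liver library, at 71380 to 115300 summed normalized counts over 6 genes. In the column names, 1 liver control library (replicate 2) and 2 liver heat stress libraries (replicates 1 and 3) carry the suffix 2nd, whose meaning is not given. Liver results are therefore also given without the muscle-bearing libraries.

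The sequences of the Gstp genes are shown first, because the pair Gstp1 and Gstp2 gave some of the larger liver differences while being hard to tell apart by sequence. In mouse they lie side by side on the minus strand of chromosome 19 of mm10 (GRCm38), Gstp1 at chr19:4035407-4037985 and Gstp2 at chr19:4040285-4046023, with Gstp3 beyond them at chr19:4057477-4059569. Over their 630 coding bases Gstp1 and Gstp2 were 98.1% identical, with an unbroken identical run of 300 bases, whereas Gstp1 and Gstp3 were 72.4% identical. Of all stretches of 100 bases in Gstp2 transcripts, 41.6% also occurred in Gstp1 transcripts, and 25.1% of those of Gstp1 occurred in Gstp2. The first 150 coding bases follow from GENCODE M21 transcripts, with bases that differ from Gstp1 in capitals, 6 in Gstp2 and 31 in Gstp3.
Gstp1: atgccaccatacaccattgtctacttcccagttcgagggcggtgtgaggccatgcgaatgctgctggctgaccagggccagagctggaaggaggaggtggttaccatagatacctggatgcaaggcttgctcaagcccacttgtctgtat
Gstp2: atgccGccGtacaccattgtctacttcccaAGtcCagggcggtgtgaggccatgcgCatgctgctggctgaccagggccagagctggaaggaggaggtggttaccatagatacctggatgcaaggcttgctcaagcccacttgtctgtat
Gstp3: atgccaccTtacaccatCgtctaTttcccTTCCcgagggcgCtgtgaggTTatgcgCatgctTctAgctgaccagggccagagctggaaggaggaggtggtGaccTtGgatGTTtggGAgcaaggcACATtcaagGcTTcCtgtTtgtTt

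The regions upstream of Gstp1 and Gstp2 are related as well, since their windows of 250 bases before the RefSeq start (GRCm38.p6) were 78.1% identical when aligned, against 42.3% for Gstp1 and Gstp3. GENCODE also lists longer Gstp2 transcripts that begin further upstream, so the Gstp2 window, before the RefSeq start, lies inside the gene span given above. The distal parts of both windows, outside every annotated exon, run as shown.
Gstp1, chr19:4037986-4038162, minus strand: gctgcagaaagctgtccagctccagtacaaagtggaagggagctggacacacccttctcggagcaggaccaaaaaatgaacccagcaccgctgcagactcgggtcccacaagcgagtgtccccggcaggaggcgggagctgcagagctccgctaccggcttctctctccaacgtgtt
Gstp2, chr19:4042264-4042471, minus strand: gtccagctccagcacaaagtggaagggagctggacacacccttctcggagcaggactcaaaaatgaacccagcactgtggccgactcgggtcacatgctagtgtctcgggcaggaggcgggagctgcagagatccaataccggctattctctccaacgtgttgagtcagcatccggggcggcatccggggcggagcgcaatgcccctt

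In liver, 6 members were higher after heat stress at an unadjusted p-value under 0.05, and 5 of them were GST genes. They were Gstt2, Gstp1, Gstp2, Gstm3, Gstm2 and the sulfotransferase Sult1c2, with differences between 1.53-fold and 2.54-fold. For each of the 6, all 3 heat stress libraries lay above all 3 control libraries. They were 14.3% of the 42 members tested, where 2.97% of all 12296 liver genes were higher by the same rule, and 16.7% of members against 5.84% of genes were past it in either direction. None of the 42 members passed an adjusted p-value of 0.05 in edgeR, and neither did any other liver gene (0%), whereas DESeq2 on the same 6 libraries called 2 members, Gstt2 and Gstp1, beside 0.52% of its genes, and DESeq2 on all 12 libraries called the same 2 members beside 1.18%. Ugt2b37 alone was lower at an unadjusted p-value under 0.05 (2.38% of members, 2.87% of all genes).

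**Figure D1:**
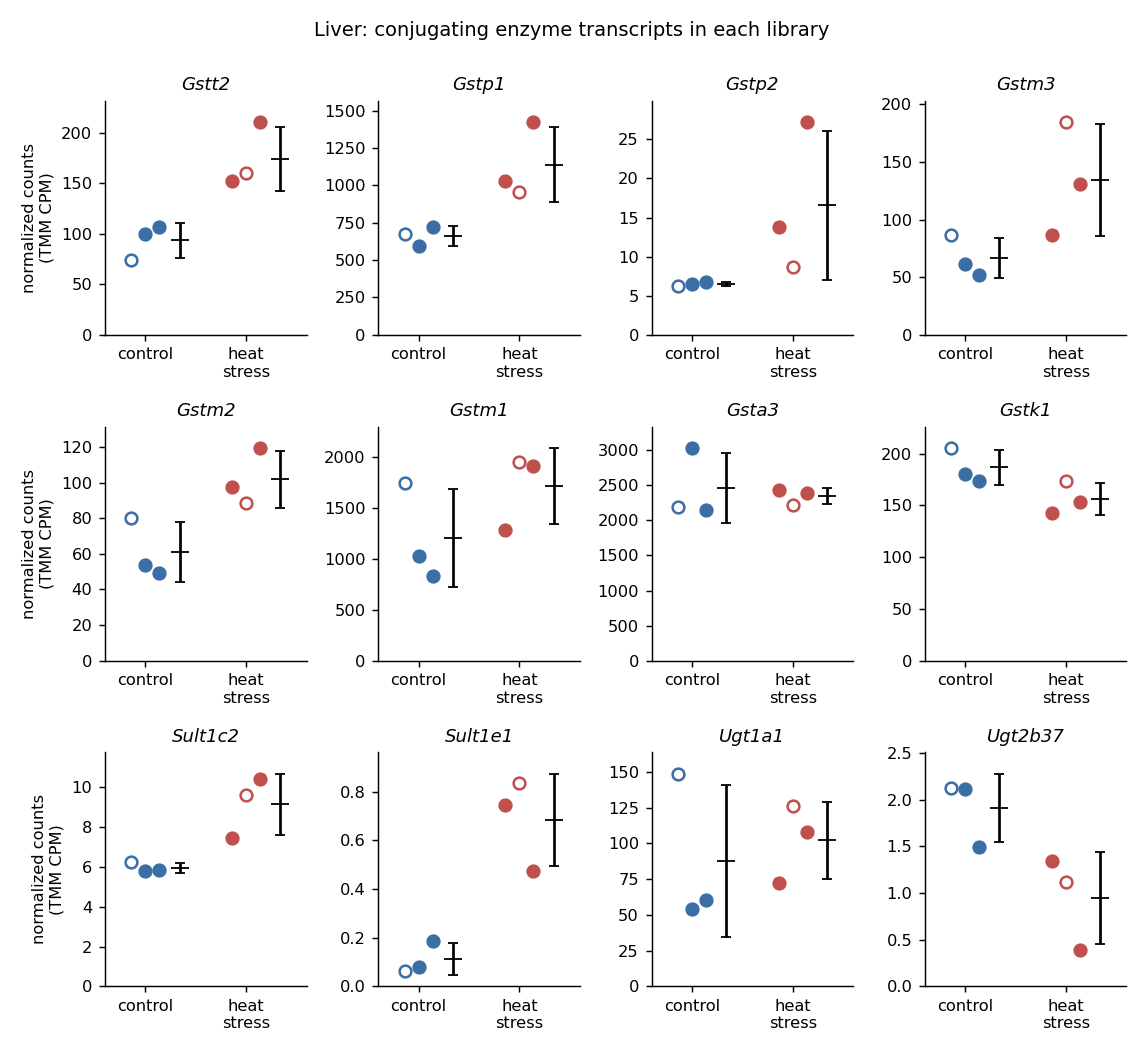
Normalized counts (TMM CPM, linear axis from 0) of 12 members in each liver library, with the mean and SD of 3 libraries as a bar beside the points. Open circles are control replicate 1 and heat stress replicate 2, the libraries with muscle transcripts. Gstt2, Gstp1, Gstp2, Gstm2 and Sult1c2 separate the groups, Gstm3 only by 86.4 against 87.0, and Gstm1 and Ugt1a1 overlap through control replicate 1.

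Gstt2, a theta class transferase on chromosome 10 (chr10:75831114-75837424), gave the smallest p-value of all members. Control livers held 74.0, 99.8 and 107 normalized counts, and heat stress livers 152, 161 and 211. The groups did not overlap, and the means were 93.5 ± 17.2 and 175 ± 31.6 (SD, n = 3). Its log2 fold change was 0.90 (SE 0.21, edgeR unadjusted p = 0.00169, adjusted p = 0.416, DESeq2 adjusted p = 0.0189). The other theta class genes were near 0, as Gstt1 (350.4 ± 70.2 in control and 332 ± 14.3 after heat stress, SD, n = 3) and Gstt3 (130.3 ± 46.6 and 129.7 ± 26.9) had log2 fold changes of -0.08 and -0.01. None of the 100-base stretches of Gstt2 occurred in another gene.

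Gstp1, the pi class transferase that is abundant in male mouse liver, had 673, 593 and 722 normalized counts in control livers. In heat stress livers it had 1032, 958 and 1423, so that the lowest heat stress library exceeded the highest control library. The log2 fold change was 0.78 (SE 0.22, edgeR unadjusted p = 0.0049, adjusted p = 0.486, DESeq2 adjusted p = 0.0425).

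Gstp2, its neighbour with much lower counts, had 6.26, 6.52 and 6.71 normalized counts in control and 13.8, 8.71 and 27.2 after heat stress. Heat stress replicate 3 was the highest, and the log2 fold change of 1.35 (SE 0.36, edgeR unadjusted p = 0.00415, adjusted p = 0.465) was 0.78 without that library, still at an unadjusted p-value under 0.05. Gstp2 counts amounted to 0.931%, 1.1% and 0.929% of Gstp1 counts in control livers and to 1.33%, 0.909% and 1.91% in heat stress livers. Given the shared sequence above, reads of Gstp1 and Gstp2 may have been split between the genes, and whether this happened was not tested. Gstp3, which shares no 100-base stretch with another gene, had a log2 fold change of 0.28 (SE 0.25), with overlapping groups at 16.9 ± 4.87 and 20.5 ± 4.99 normalized counts (SD, n = 3).

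The mu class genes stand in a cluster on chromosome 3 and conjugate epoxides and other electrophiles. Gstm3 (chr3:107963696-107969283) had 86.4, 61.3 and 52.2 normalized counts in control and 87.0, 185 and 131 after heat stress, a log2 fold change of 1.01 (SE 0.29, edgeR unadjusted p = 0.00585, adjusted p = 0.529). Control replicate 1 and heat stress replicate 1 were almost level, so the groups only just separated. Gstm2 (chr3:107981702-107986453) had 80.2, 53.7 and 49.4 normalized counts in control and 97.4, 88.4 and 119.6 after heat stress, with a log2 fold change of 0.74 (SE 0.22, edgeR unadjusted p = 0.00829, adjusted p = 0.604). Gstm1, one of the most abundant GST genes of control liver, had 1739.6, 1026 and 826 normalized counts in control and 1281, 1945 and 1909.8 after heat stress. Its groups overlapped (log2 fold change 0.52, SE 0.30, edgeR unadjusted p = 0.117, adjusted p = 0.930). Without control replicate 1 the log2 fold change was 0.88 (edgeR unadjusted p = 0.00306, adjusted p = 0.194), and without both libraries with muscle transcripts it was 0.77 (unadjusted p = 0.00398, adjusted p = 0.206). Over the 7 mu class genes tested, 6 had a log2 fold change above 0, with a median of 0.21 against 0.01 for all liver genes, and Gstm5 was the exception at -0.02. Without the 2 libraries with muscle transcripts Gstm5 stood at 0.0048.

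In the remaining GST classes, every liver p-value was above 0.05 before adjustment. The omega class gene Gsto1 stood at 82.4 ± 17.8 in control and 104 ± 16.6 after heat stress (SD, n = 3; log2 fold change 0.33, SE 0.21), and at a log2 fold change of 0.54 (edgeR unadjusted p = 0.0113, adjusted p = 0.295) without the 2 libraries with muscle transcripts. Gsta3, the leading alpha class gene, had 2194, 3035 and 2149.6 normalized counts in control and 2431, 2225 and 2387 after heat stress (log2 fold change -0.07, SE 0.21). Gsta1 stood at 11.1 ± 3.49 and 12.7 ± 1.61 (SD, n = 3), and 80.6% of its 100-base stretches occur in other genes, chiefly Gm3776. Gstk1, the mitochondrial and peroxisomal kappa class enzyme, went the other way. Its 3 heat stress libraries (143, 174 and 153 normalized counts) lay below the 3 control libraries (206, 181 and 174), though heat stress replicate 2 was almost level with control replicate 3 (log2 fold change -0.26, SE 0.18, edgeR unadjusted p = 0.177, adjusted p = 0.936). The median log2 fold change of the 20 GST genes tested was 0.23, and 14 of them were above 0. Over all 42 members, 25 were above 0 (59.5%, against 51.8% of all liver genes). The members whose heat stress libraries all lay above the controls numbered 6 of 42 (14.3%, against 5.38% of all liver genes), and those with all below were Gstk1 and Ugt2b37 (4.76%, against 5.73%).

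**Figure D2:**
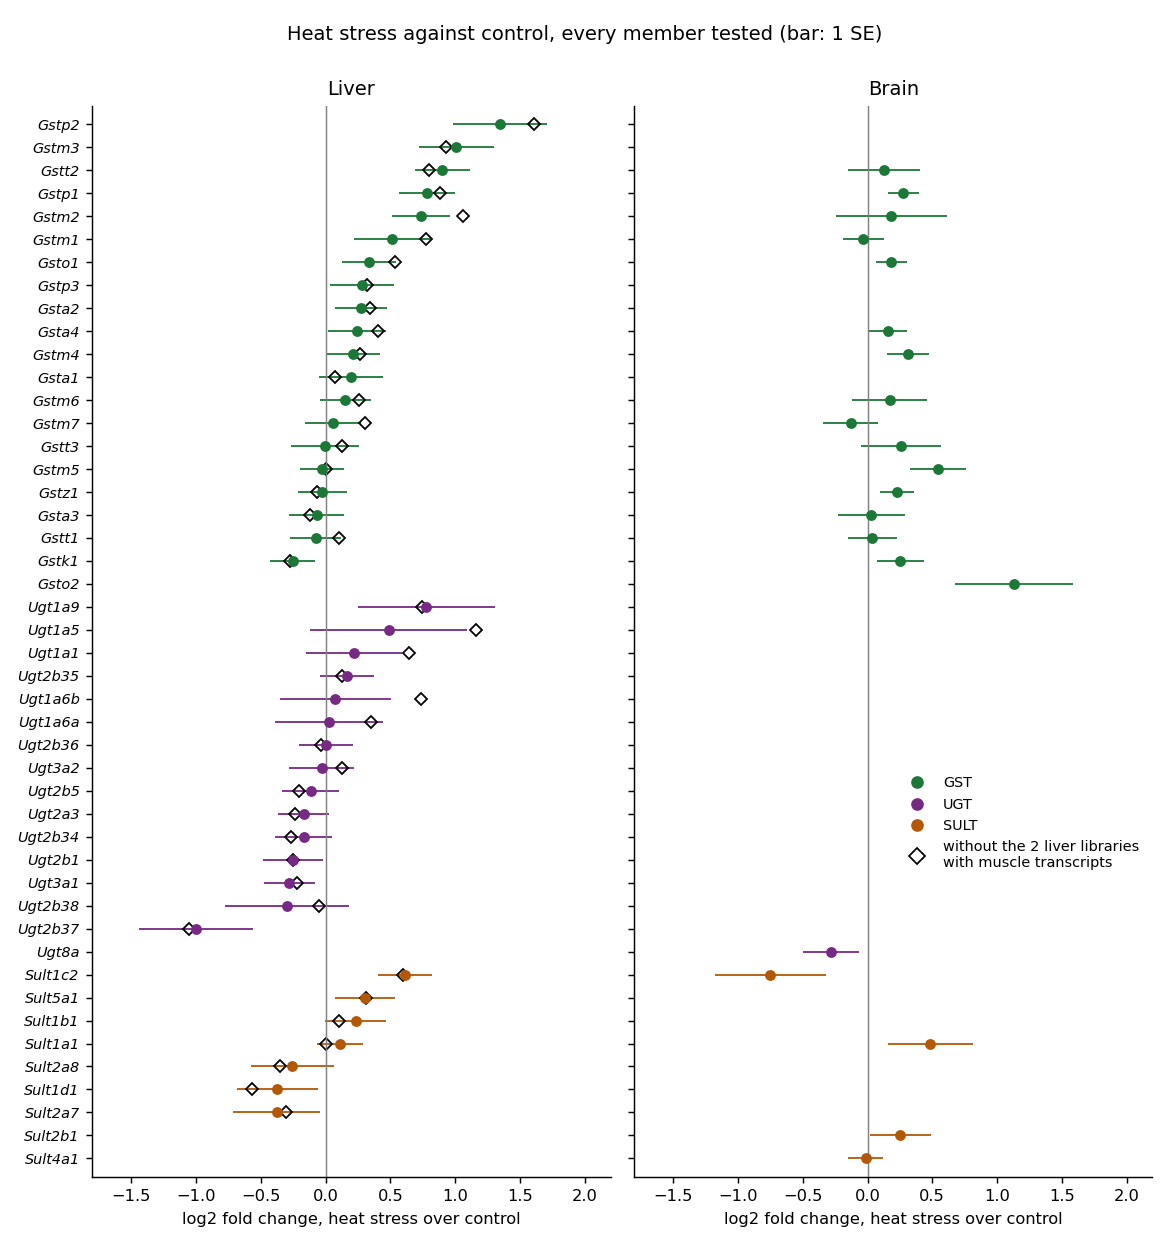
Log2 fold change of heat stress over control for every member tested in liver (left) and brain (right), coloured by superfamily, with bars of 1 SE. Diamonds give the liver values without control replicate 1 and heat stress replicate 2. The GST genes at the top of the liver panel stay above 0, and 4 of the 5 Ugt1a genes move to the right.

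Leaving out the 2 libraries with muscle transcripts left the 5 GST genes above higher after heat stress, and calls rose over all genes as well as over the members. With 2 libraries a group, 4 of the 42 members tested passed an adjusted p-value of 0.05 in edgeR, among 81 of all 12239 genes tested. These were Gstm2 (log2 fold change 1.06, edgeR adjusted p = 0.00735), Gstp2 (1.61, adjusted p = 0.0129), Gstm3 (0.93, adjusted p = 0.0313) and Ugt1a5 (1.16, adjusted p = 0.0451). Gstp1 (0.88, edgeR adjusted p = 0.0927) and Gstt2 (0.80, adjusted p = 0.0719) kept their size and missed the threshold. At an unadjusted p-value under 0.05, 12 members were then higher (28.6%) and Sult1d1 alone was lower, where 5.84% of all genes were higher and 4.57% lower in that fit. Within the libraries that carry the column suffix, and within those that do not, the log2 ratios of heat stress over control were 0.86 and 0.83 for Gstt2, 1.05 and 0.46 for Gstp1, 1.65 and 0.43 for Gstp2, 1.01 and 0.45 for Gstm2, and 0.83 and 1.41 for Gstm3. Each ratio rests on a single library in 1 group, control replicate 2 with the suffix and heat stress replicate 2 without it. Both libraries with muscle transcripts lack the suffix. The part of the suffix in these values was not tested by the ratios. With the suffix as a term in the edgeR fit of all 6 libraries, unadjusted p-values were 0.00317 for Gstt2, 0.00915 for Gstp1, 0.0207 for Gstp2, 0.0154 for Gstm2 and 0.00195 for Gstm3, and adjusted p-values lay between 0.311 and 0.526, in a fit chosen after seeing the data. At an unadjusted p-value under 0.05, 8 members were higher there (19%, against 4.3% of all genes), with Sult1c2, Ugt1a5 and Ugt1a9 beside these GST genes. Sult2a7 alone was lower (log2 fold change -0.67, edgeR unadjusted p = 0.0152), where 4.2% of all genes were lower, and Ugt2b37 missed that level (unadjusted p = 0.0640).

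Glucuronosyltransferases of liver had no common direction. Their 15 tested members had a median log2 fold change of -0.03, with 7 above and 8 below 0. The Ugt2b genes, which act on steroids and drugs, were the most abundant. Ugt2b5 had 891, 1124 and 1385 normalized counts in control and 1016, 934 and 1190.0 after heat stress (log2 fold change -0.12, SE 0.22), and Ugt2b36 had means of 941 ± 149 and 943 ± 128 (SD, n = 3). Ugt2b1 (log2 fold change -0.25, SE 0.23) and Ugt2a3 (-0.17, SE 0.20) had overlapping groups. Ugt2b37, a minor member on chromosome 5, had 2.13, 2.12 and 1.49 normalized counts in control and 1.34, 1.12 and 0.394 after heat stress. Its fold of 0.499 (SE 0.44 on the log2 scale, edgeR unadjusted p = 0.0467, adjusted p = 0.849) rests on 33, 26 and 16 raw counts against 18, 16 and 5. Ugt2b37 lost that unadjusted p-value in 11 of 16 alternatives, among them both DESeq2 fits.

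The Ugt1a genes share one locus on chromosome 1, where each has its own first exon and all are spliced to the same later exons. For Ugt1a1, the bilirubin-conjugating enzyme at chr1:88211959-88218997, 58.9% of the exon bases also belong to other Ugt1a genes. How the deposited counts treat reads from the common exons is not given, so single Ugt1a values are uncertain and the locus is best read as a sum. Summed over the 8 Ugt1a genes of the table, control livers had 273.9, 86.9 and 107.3 normalized counts, and heat stress livers had 140.7, 252.8 and 176.8. The highest values of each group belonged to the libraries with muscle transcripts. Ugt1a1 showed the same order, with 149, 53.8 and 60.4 in control and 72.5, 126 and 108 after heat stress (log2 fold change 0.22, SE 0.37, edgeR unadjusted p = 0.570, adjusted p = 0.970). In the 4 libraries without muscle transcripts Ugt1a1 had a log2 fold change of 0.64 (SE 0.20, edgeR unadjusted p = 0.00435, adjusted p = 0.21).

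**Figure D3:**
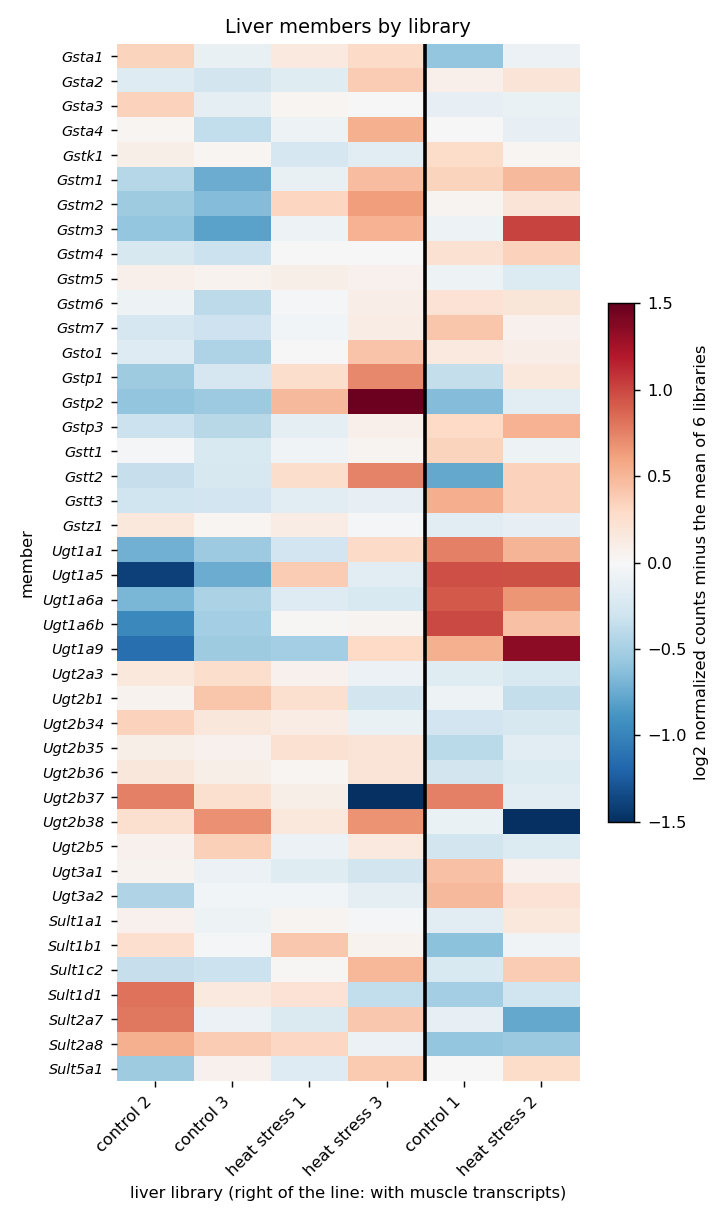
Log2 normalized counts of the 42 members tested in liver, each minus its mean over the 6 libraries, with colour limits at -1.5 and 1.5. The 2 libraries with muscle transcripts stand right of the black line. All 5 Ugt1a rows are red there in both the control and the heat stress library, and most Ugt2b rows and Sult2a8 are blue.

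This split of the liver libraries took in many members. In both libraries with muscle transcripts, 11 of the 42 members lay above all 4 other libraries and 10 lay below them, where 16.8% and 15.8% of all liver genes did so. The members above included all 5 tested Ugt1a genes, Gstm4, Gstp3 and Gstt3. Below were the abundant Ugt2b5, Ugt2b34, Ugt2b35 and Ugt2b36, Ugt2a3, Gstz1 and Sult2a8. Of the 2 libraries, 1 is a control and the other a heat stress library. The part of muscle tissue in these values was not tested.

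Sulfotransferases gave 7 tested members in liver. Sult2a8, a bile acid and steroid sulfotransferase and the most abundant of them, varied more within groups than between them, at 897, 1952 and 1755 normalized counts in control and 1674, 915 and 1261 after heat stress (log2 fold change -0.26, SE 0.32). The phenol sulfotransferase Sult1a1 was steady at 399 ± 30.5 and 431 ± 26.7 (SD, n = 3; log2 fold change 0.11, SE 0.18). Sult1d1, which sulfates catecholamines, had 113, 280.2 and 176 normalized counts in control and 186, 130.2 and 124 after heat stress (log2 fold change -0.37, SE 0.31). Sult1c2 (chr17:53829637-53846339) had 6.26, 5.79 and 5.87 in control and 7.45, 9.62 and 10.4 after heat stress, which separated the groups (log2 fold change 0.61, SE 0.21, edgeR unadjusted p = 0.0158, adjusted p = 0.743, DESeq2 adjusted p = 0.876). An unadjusted p-value under 0.05 was lost with the replicate number as a block and without heat stress replicate 3.

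Estrogen sulfotransferase, Sult1e1 (chr5:87575969-87591594), inactivates estrogens and is normally low in male mouse liver. It was below the count filter, with raw counts of 1, 1 and 2 in control and 10, 12 and 6 after heat stress. All heat stress libraries were above all control libraries, and the ratio of the summed levels was 6.66 (95% exact interval 2.33 to 26.1 for counting error alone). Without the filter its edgeR unadjusted p was 0.00497 and its adjusted p was 0.642. Sult3a1, which is female-predominant in mouse liver, went the other way, with 3, 5 and 3 counts in control and 1, 1 and 0 after heat stress, a ratio of 0.173 (95% exact interval 0.0186 to 0.792). Sult2a1, also female-predominant, had at most 1 count in any liver library. The brain gene Sult4a1 had 28 counts in liver control replicate 1 and at most 2 in the other liver libraries. In that library oligodendrocyte markers summed to 48.9 normalized counts, against 14.4 to 22.3 in the others, and the part of brain RNA in its values was not tested.

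Genes that supply or regulate conjugation, or act beside it, were examined next to the enzymes. Of 66 such genes tested in liver, 7 had an unadjusted p-value under 0.05, with 6 on the higher side, which is 10.6%, against 5.84% of all liver genes. UDP-glucuronate supply (4 genes), sulfate and PAPS supply (7 tested), glutathione supply (7 tested), other glutathione transferases (5 tested) and efflux transporters (6 tested) had medians between -0.18 and 0.11 on the log2 scale in liver. At an unadjusted p-value under 0.05 in these 5 lists, Slc35b1 was lower (log2 fold change -0.61, SE 0.19) and Slc35b2, the Golgi PAPS carrier (0.50, SE 0.18), and Chac1, a glutathione-degrading enzyme (0.96, SE 0.35), were higher. Of the 13 xenobiotic receptors and regulators 10 had a log2 fold change above 0, but only Por, the electron donor of the cytochromes P450, had an unadjusted p-value under 0.05, with 225, 165 and 181 normalized counts in control and 249.6, 334 and 374 after heat stress (log2 fold change 0.74, SE 0.22, edgeR unadjusted p = 0.00655, adjusted p = 0.559). Nat8, an acetyltransferase of the mercapturate pathway, was higher too, with overlapping groups (0.57, SE 0.24). None of the 6 receptor targets, among them Cyp1a2, Cyp2b10, Cyp3a11 and Nqo1, had an unadjusted p-value under 0.05. The PAR bZIP factors Dbp and Tef, clock-driven activators of detoxification genes, were both higher in all heat stress livers, while the third PAR factor, Hlf, had overlapping groups (log2 fold change 0.07, edgeR unadjusted p = 0.688). Dbp had 98.4, 45.1 and 72.2 normalized counts in control and 115, 158 and 175 after heat stress (log2 fold change 1.05, SE 0.28, edgeR unadjusted p = 0.00411, adjusted p = 0.465), and Tef had a log2 fold change of 0.44 (SE 0.19). With DESeq2 on all 12 libraries, adjusted p-values were 0.0170 for Por, 0.00834 for Dbp and 0.0195 for Slc35b1. On the 6 liver libraries they were 0.108, 0.0645 and 0.233. For Slc35b2, Chac1, Nat8 and Tef both were above 0.05.

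Markers of liver cell types were summed in the same way. Pericentral hepatocyte markers summed to 9371 to 10670 normalized counts in control and 10460 to 13560 after heat stress, with 4 of 6 genes above 0 and none at an unadjusted p-value under 0.05. Kupffer cell markers summed to 69.7 to 123.5 and 96.5 to 165, with 5 of 5 genes above 0, and Marco (log2 fold change 1.83, SE 0.60) was the gene of that list with an unadjusted p-value under 0.05. The part of either in the GST differences was not tested.

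In brain, the members took a smaller share of the transcripts than in liver. At an unadjusted p-value under 0.05, 3 of the 21 members tested were higher after heat stress, Gstm5, Gsto2 and Gstp1, and none was lower. That is 14.3% of members, where 10% of all 14806 brain genes were higher, 10% lower and 20.1% either by the same rule. Gsto2 passed the count filter through its heat stress libraries, since only control replicate 3 held 10 counts or more. With a minimum count of 30, Gstm5 and Gstp1 were the higher members, 2 of 18 (11.1%, against 10.7% of all brain genes). No member and no brain gene (0%) passed an adjusted p-value of 0.05 in edgeR. DESeq2 on the 6 brain libraries gave an adjusted p-value for 9 members and called none of them, beside 7.95% of its genes, and on all 12 libraries it called 0 of 44 members, beside 0.0819%. The log2 fold change was above 0 for 14 of the 16 GST genes tested, with a median of 0.18, against a median of -0.00 over all brain genes. Over all 21 members, 16 were above 0 (76.2%, against 49.7% of all brain genes).

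**Figure D4:**
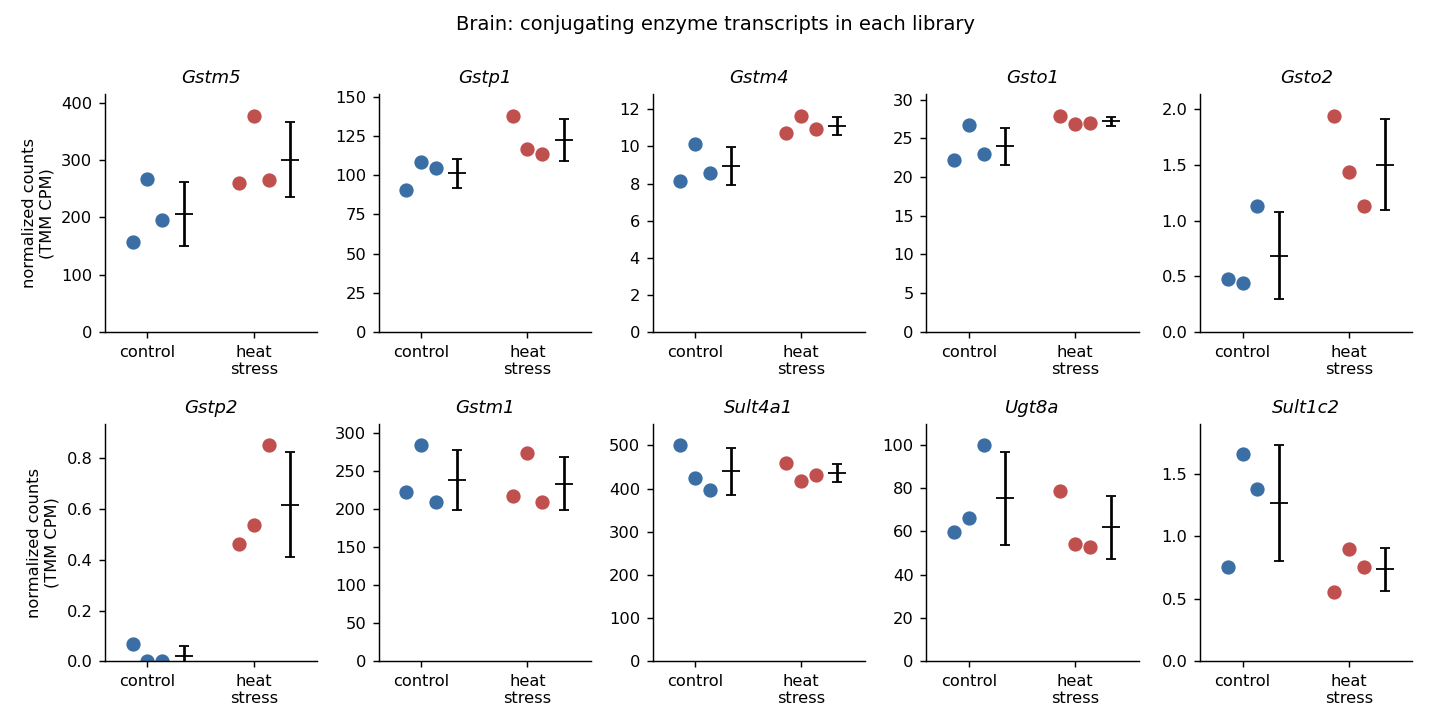
Normalized counts (TMM CPM, linear axis from 0) of 10 members in each brain library, with the mean and SD of 3 libraries as a bar beside the points. Gstp1, Gstm4, Gsto1 and Gstp2 separate the groups, Gsto2 is level between its closest libraries, and Gstm5, Gstm1, Sult4a1, Ugt8a and Sult1c2 overlap.

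Gstm5, the brain and testis member of the mu class, had 157, 267 and 196 normalized counts in control and 261, 377 and 265 after heat stress. Control replicate 2 lay above the lower 2 heat stress libraries, so the groups overlapped (log2 fold change 0.54, SE 0.22, edgeR unadjusted p = 0.0325, adjusted p = 0.217, DESeq2 adjusted p = 0.0814). The unadjusted p-value was above 0.05 without control replicate 1, without control replicate 3, and without heat stress replicate 2. In liver the same gene had a log2 fold change of -0.02 (SE 0.17). Gstm5 is also 1 of 3 members whose upstream window held the letters TGACNNNGC, searched here as the antioxidant response element, the site known for binding NRF2. The region is shown with the element in capitals, 42 bases before the start.
Gstm5, chr3:107895604-107895820, plus strand: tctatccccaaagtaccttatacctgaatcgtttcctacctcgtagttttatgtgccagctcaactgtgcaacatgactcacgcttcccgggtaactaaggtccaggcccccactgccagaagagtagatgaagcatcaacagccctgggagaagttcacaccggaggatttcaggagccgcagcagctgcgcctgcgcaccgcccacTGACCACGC

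The upstream regions were searched for 3 motifs, on both strands, in windows of 250 bases before the RefSeq start, which were found for 56 of the 64 members. The antioxidant response element, TGACNNNGC, occurred upstream of 3 of these genes, Gsta3, Gstm5 and Gstm7. That is 4.48% of the 67 member windows, as some genes had several, against 10.2% of 32851 promoters. The heat shock element, searched as GAA, TTC and GAA with any 2 bases between neighbours, occurred in none, and in 0.466% of promoters. The xenobiotic response element, GCGTG, occurred upstream of 10 genes, Gstp1 and Gstm5 among them. That is 16.4% of the member windows, against 28.2% of promoters, and in Gstm5 a match overlaps the antioxidant response element. Of the 6 members higher in liver, 5 had a window, and none held either of the first motifs in the letters searched. Only Gstp1 among them held the xenobiotic response element, nearer to the start than the stretch printed above. Spellings other than the letters given, such as TGAGTCAGC in the Gstp1 and Gstp2 windows, were not searched. The counts do not cover them. Matches to a motif are letters in a window and do not show binding.

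Gstp1 in brain had 90.7, 108 and 105 normalized counts in control and 138, 116 and 114 after heat stress, so that the groups did not overlap (log2 fold change 0.28, SE 0.12, edgeR unadjusted p = 0.0482, adjusted p = 0.246). The unadjusted p-value was 0.05 or more in 9 of 14 alternatives, among them both DESeq2 fits and the fits without control replicate 1, control replicate 3, heat stress replicate 1 or heat stress replicate 2. Gstp2 was below the filter in brain, with raw counts of 1, 0 and 0 in control and 5, 6 and 9 after heat stress. The ratio of the summed levels was 23.6 (95% exact interval 3.77 to 976.9, counting error alone), and Gstp2 reached 0.335%, 0.462% and 0.748% of Gstp1 counts in the heat stress libraries. Gsto2, an omega class transferase with dehydroascorbate reductase activity, had 7, 5 and 14 raw counts in control and 21, 16 and 12 after heat stress (log2 fold change 1.13, SE 0.45, edgeR unadjusted p = 0.0332, adjusted p = 0.218), and replicate 3 of both groups was level at 1.13 normalized counts. It too lost that p-value in 9 of 14 alternatives, among them both DESeq2 fits and the fits without control replicate 1, control replicate 2, heat stress replicate 1 or heat stress replicate 2. Its neighbour Gsto1 had 22.2, 26.7 and 23.0 normalized counts in control and 27.9, 26.8 and 26.9 after heat stress (log2 fold change 0.18, SE 0.12). Gstm4 separated as well, at 8.16, 10.1 and 8.58 against 10.7, 11.6 and 11.0 (log2 fold change 0.31, SE 0.16, edgeR unadjusted p = 0.0808, adjusted p = 0.300). With Gsto2, whose closest libraries differed by less than the digits printed, 4 members separated (19% of the 21 tested, against 12.9% of all brain genes), and without it Gstp1, Gsto1 and Gstm4 were 14.3%, and no member had all heat stress libraries below the controls (12% of all genes).

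Gstm1 was flat in brain at 238 ± 39.7 and 233 ± 34.9 normalized counts (SD, n = 3; log2 fold change -0.03, SE 0.16). Sult4a1 was flat as well, with 499.9, 424 and 395 in control and 459, 418 and 430.2 after heat stress (log2 fold change -0.01, SE 0.13), and its order over the 6 libraries was that of the summed neuron markers, which ran from 4803 to 6490. Ugt8a had 59.6, 66.3 and 99.6 in control and 78.5, 54.1 and 52.9 after heat stress (log2 fold change -0.28, SE 0.22). Its highest values were in control replicate 3 and heat stress replicate 1, the libraries with the highest oligodendrocyte markers, at 12330 and 12010 summed normalized counts against 7077 to 9672 in the others. Sult1a1 was 9.53, 12.1 and 7.20 in control and 10.4, 21.0 and 8.78 after heat stress (log2 fold change 0.48, SE 0.33), where heat stress replicate 2 carried the difference. Gsta4, which conjugates products of lipid peroxidation, stood at 41.9 ± 3.27 and 46.7 ± 8.81 (SD, n = 3), and the cholesterol sulfotransferase Sult2b1 at 8.25 ± 2.60 and 9.89 ± 1.26, with overlapping groups for both. Sult2a5 and Sult6b1 were below the filter at 5 and 7 counts summed over the heat stress brains, against 0 and 1 in control.

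Vascular and choroid plexus transcripts differed between the brain groups. All 5 endothelial markers were lower after heat stress at an unadjusted p-value under 0.05, with summed levels of 126.5 to 222.3 in control and 81.1 to 105 after heat stress. Choroid plexus markers summed to 1239 to 2467 and 258.2 to 1119, and 4 of 6 were lower at that level. The part of these cells in the values of the GST genes, and of the pathway genes that follow, was not tested. Of the 55 pathway genes tested in brain, 12 had an unadjusted p-value under 0.05, with 6 on each side, which is 21.8%, against 20.1% of all brain genes. Hnmt, which methylates histamine, was higher (log2 fold change 0.65, SE 0.16, edgeR adjusted p = 0.170, DESeq2 adjusted p = 0.0227), as were the microsomal transferase Mgst3 (0.40, SE 0.15) and the prostaglandin D synthase Hpgds (0.34, SE 0.14), both from the list of other glutathione transferases. Cbs, which feeds cysteine into glutathione synthesis, was lower (-0.49, SE 0.11, edgeR adjusted p = 0.170, DESeq2 adjusted p = 0.0307), and so were Chac1 (-0.48, SE 0.21), which was higher in heat stress liver, and the efflux transporters Abcb1a (-0.79, SE 0.25) and Abcc4 (-0.71, SE 0.23). Impad1 and Nqo1 were the other genes past that p-value on the higher side, and Arsb and Nfil3 on the lower side. Dbp was higher in brain too (0.56, SE 0.10, edgeR adjusted p = 0.170, DESeq2 adjusted p = 0.00471), while Tef had a log2 fold change of 0.22 and Hlf of -0.29, both with overlapping groups. With DESeq2 on all 12 libraries, adjusted p-values were 0.219 for Hnmt, 0.456 for Cbs and 0.400 for Dbp.

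The effect of heat stress was compared between the tissues in a fit of all 12 libraries, in which the difference of the 2 log2 fold changes was tested. None of the 46 members in that fit passed an adjusted p-value of 0.05 in edgeR (0.00632% of all genes did), 4 had an unadjusted p-value under 0.05 (8.7%, against 9.64% of all genes), and DESeq2 called 0 members of 38, beside 0.449% of all genes. Only 17 of the 46 were tested in both tissues. The others had too few counts in 1 tissue for a second heat effect, so for them these counts decide nothing. Of the 4, Ugt2b5 and Gstp2 were among these others. Among the 17 members tested in both tissues, Sult1c2 had the widest gap, 1.34 higher in liver on the log2 scale (SE 0.43, edgeR unadjusted p = 0.00799, adjusted p = 0.516), since it was higher in heat stress liver and had a log2 fold change of -0.75 (SE 0.43) in brain. That brain value rests on 11, 19 and 17 raw counts in control and 6, 10 and 8 after heat stress, with overlapping groups (edgeR unadjusted p = 0.111, adjusted p = 0.345). Gstt2 followed with 0.77 (SE 0.32, edgeR unadjusted p = 0.0295, adjusted p = 0.516), at 2.81, 5.06 and 3.80 normalized counts in control brain and 4.25, 5.02 and 3.40 after heat stress. Gstm5 (-0.58, SE 0.28), Gstk1 (-0.53, SE 0.27) and Gstp1 (0.49, SE 0.28) had unadjusted p-values above 0.05.

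**Figure D5:**
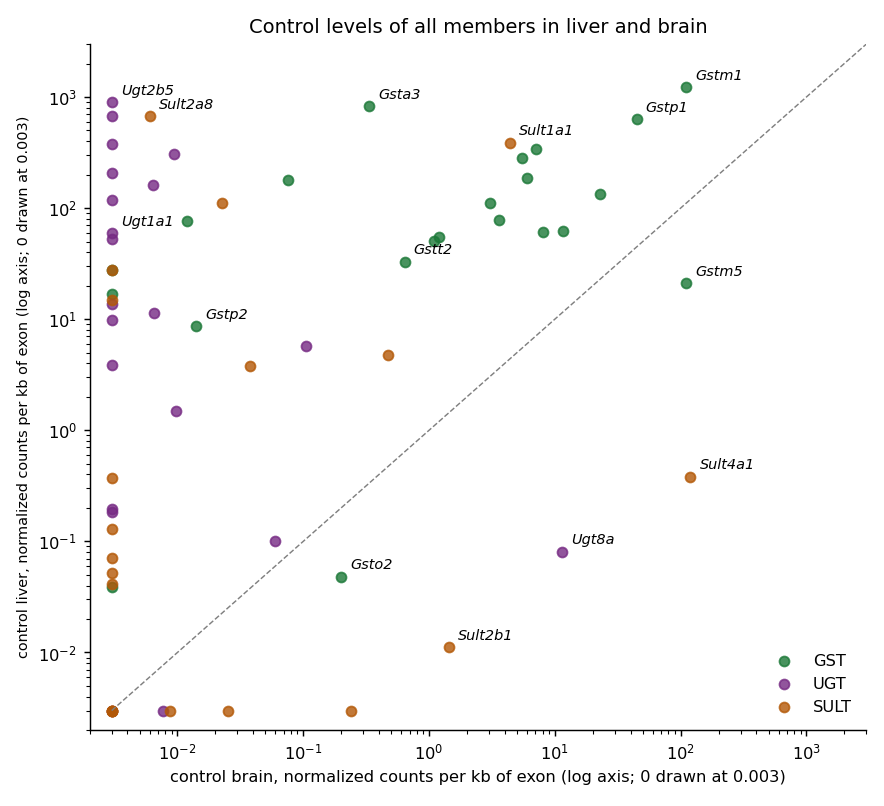
Mean level of every member in control liver against control brain, in normalized counts per kilobase of exon on log axes, with the 12 libraries scaled together and values of 0 drawn at 0.003. Points above the dashed line are higher in liver. Sult4a1, Ugt8a, Sult2b1 and Gstm5 lie far below the line.

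Levels differed widely between the tissues. Between control liver and control brain, 45 of the 46 members differed at an adjusted p-value under 0.05 in edgeR (97.8%, against 80.4% of all genes; DESeq2 called 50 of 52, against 73.7%), 41 higher in liver (89.1%, against 36.1% of all genes) and 4 higher in brain (8.7%, against 44.2%). Only 17 of the 46 were tested in both tissues. The others had enough counts in only liver or only brain, so the filter largely fixed a difference for them in advance. These shares therefore do not show that members differ more often than other genes. Gsto2, which missed the threshold (edgeR adjusted p = 0.0594), was among the others. Every member tested in both tissues passed it, and of these Gstm5 alone was higher in brain. Per kilobase of exon, on a scale common to the 12 libraries, Gstm1 led in control liver at a mean of 1221 normalized counts, with a range of 799.6 to 1885 over 3 libraries, followed by Ugt2b5 (892.8, range 765.3 to 1063), Gsta3 (831.2, range 705.6 to 981.7) and Sult2a8 (677.6, range 435.8 to 834.9). The ranges of these neighbours overlap, so their order is not resolved. In control brain the leaders were Sult4a1 at 119.7 (range 108.6 to 136.2), Gstm1 at 110.7 (98.2 to 130.8), Gstm5 at 110.6 (84.0 to 141.9) and Gstp1 at 44.7 (40.1 to 47.5). Gstp1 stood apart from the first 3 in brain, which overlapped. Gsta3 was 11.26 higher in liver on the log2 scale (SE 0.30, edgeR adjusted p = 1.27e-11) and Gstp1 3.82 higher (SE 0.22, adjusted p = 1.82e-09), while Gstm5 was the mu class gene that was higher in brain (log2 difference -2.39, SE 0.21, adjusted p = 1.27e-07). Ugt2b5, Ugt2b36 and Ugt2b1 had no count in the control brains.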

How the data were processed

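The authors deposited raw read counts per gene symbol for the 12 libraries. Their methods describe the counting in 2 ways, with HISAT2 and featureCounts on mm10 or with Tophat2 and HTSeq, and the submitters' processing notes name HISAT2 2.2.1 and Subread 2.0.1. The annotation release, the strand setting and the treatment of reads shared between genes are not given in the sources used here, so antisense and near-identical genes may share reads. Deposited tables of the authors' own comparisons (fold changes and p-values) were not used.

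Counts were analysed in R 4.3.3 with edgeR 4.0.16 (TMM, filterByExpr with min.count 10 and min.total.count 15, robust quasi-likelihood fits within each tissue) and Benjamini-Hochberg adjustment over all genes tested. DESeq2 1.42.0 was the alternative. Each SE was the size of the log2 fold change divided by the root of its F statistic. Same-numbered control libraries of brain and liver deviated together (r of 0.386, 0.389 and 0.127 over genes), and heat stress libraries did not (0.0567, -0.231 and 0.0263). The labels state no pairing, so the replicate number was a block only in an alternative. The procedures were run on simulated counts with 200 genes changed 4-fold and a single spread for all genes. These settings differ from the data, so the run does not show how often smaller changes are found. With 3 libraries against 3, an exact permutation test of a single value cannot go below 0.1. A count of 0 allows a share of up to 1.92e-05% to 2.87e-05% of a library, for counting error only.

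Members, lists and alternatives were chosen with earlier results of these data known. Members named are those with the highest control levels per kilobase, an unadjusted p-value under 0.05, a DESeq2 call, groups that did not overlap, the smallest p-values between tissues, and some textbook genes. Exon lengths and shared 100-base stretches (the read length) come from GENCODE M21, and promoter windows from RefSeq.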

Additional observations from a re-analysis of the deposited data

How the results depend on the processing

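In 16 alternatives for liver, Gstm2, Gstm3, Gstp1, Gstp2 and Gstt2 kept an unadjusted p-value under 0.05 in each, Sult1c2 in 14 and Ugt2b37 in 5. Members past an adjusted p-value of 0.05 in liver, 0 in edgeR, were 2 with DESeq2 on 6 libraries, beside 0.52% of its genes. They were 2 with DESeq2 on 12 libraries, beside 1.18%. Without the 2 libraries with muscle transcripts they were 4 of 42 in edgeR, among 81 of 12239 genes. Members higher in liver at an unadjusted p-value under 0.05, 6 as reported, were 12 without those 2 libraries and 5 to 13 with each library left out in turn, where 13 came without control replicate 1. All genes moved as well, from 2.97% higher to 5.84% without the 2 libraries and 7.11% without control replicate 1. Members lower, 1 as reported, were 0 with DESeq2 on 6 libraries, 0 with a minimum count of 30, 2 without a filter and 0 to 2 with each library left out, 0 in every such fit but those without control replicate 1 (2) or heat stress replicate 1 (1). Of all liver genes, 2.87% were lower as reported and 1.91%, 3.29% and 2.41% in the first 3 of these alternatives. With each library left out, 1.45% to 5.78% were lower. In brain, members higher, 3 as reported, were 5 without a filter and 0 to 4 with each library left out, 0 without heat stress replicate 2 and 1 without control replicate 1, control replicate 3 or heat stress replicate 1, and members lower were 0 to 1. Of all brain genes, 10% were higher as reported, 7.38% without a filter and 4.85% to 13.6% with each library left out. On the lower side they were 10% as reported and 5.9% to 13.3% with each library left out. Most brain alternatives kept Gstm5 (11 of 14), fewer Gsto2 and Gstp1 (5 each). The causes were not tested.

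With the replicate number as a block, brain had 1 member higher at an unadjusted p-value under 0.05 (3 without it, Gsto2 and Gstp1 being lost) and liver 5 (6 without it, Sult1c2 being lost), and liver had 1 lower. Of all genes, 9.84% in brain and 1.56% in liver were higher under the block (10% and 2.97% without it). In liver 1.05% were lower (2.87% without it). At an adjusted p-value of 0.05 in edgeR, 0 members differed in effect between tissues and 45 differed between the control tissues, the same counts as without the block. As above, only 17 members were tested in both tissues. Within a tissue, the deviations of same-numbered control and heat stress libraries correlated at -0.625, -0.546 and -0.0921 in liver and at -0.301, 0.232 and -0.204 in brain, which does not pair them.

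Some log2 fold changes near 0 changed sign. Ugt2b36 (0.0036 as reported) was -0.0147 with RLE, -0.0045 with upper quartile, -0.0176 with DESeq2 on 6 libraries, -0.0093 with edgeR on 12 libraries, -0.0095 without a filter, -0.0104 with a minimum count of 30, -0.0356 without the 2 libraries and -0.0943 with the column suffix as a term, an alternative chosen after seeing the data. Without the 2 libraries Gstt1 was 0.101, Gstt3 0.130, Gstm5 in liver 0.0048 and Sult1a1 in liver -0.000217. With each library left out in turn, the log2 fold changes ranged in liver from -0.0217 to 0.453 for Gsta1, -0.157 to 0.112 for Gsta3, -0.198 to 0.0796 for Gstt1, -0.648 to 0.0211 for Sult1d1, -0.0364 to 0.826 for Ugt1a1, -0.132 to 0.102 for Ugt2b36 and -0.276 to 0.0531 for Ugt2b5, and in brain from -0.162 to 0.106 for Gstm1, -7.87e-05 to 0.712 for Sult1a1 and -0.0853 to 0.0893 for Sult4a1. Low counts limit Sult1e1 and Sult3a1 in liver and Gstp2, Sult2a5 and Sult6b1 in brain.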
